A study of Mus musculus with 18 samples.

Results

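The transcripts of 10 immediate early transcription factor genes were followed by RNA-seq in the left ventricle of mice carrying a cyclin D2 transgene and of wild-type mice. They were the FOS family genes Fos and Fosb, the JUN family genes Jun, Junb and Jund, the EGR genes Egr1, Egr2 and Egr3, and Atf3 and Myc. They were chosen by name, with earlier results of these data known. By Ensembl identifier, all 10 were found among the 38355 identifiers counted in each library. All 10 passed the filter on low counts, as members of the 14876 genes tested.

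Immediate early genes are transcribed within minutes of a stimulus, from factors already present in the cell and without new protein synthesis. FOS and JUN proteins pair to form AP-1, which binds DNA and sets the transcription of later genes. EGR proteins are zinc finger factors that bind GC-rich sites, and the NAB corepressors hold them in check. ATF3 is a stress-induced factor of the ATF and CREB family that can pair with JUN proteins, and MYC pairs with MAX to raise genes of ribosome production and growth. In heart muscle, stretch, pressure, catecholamines, handling of the animal and tissue damage are all known to raise transcripts of this kind, which then decay within hours.

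All mice were (DBA/2J x C3HeB/FeJ)F1. The 4 groups were untreated wild type (WT, n = 5), MHC-cycD2 transgenic with sham surgery (cycD2 sham, n = 5), MHC-cycD2 transgenic with TAC (cycD2 TAC, n = 3, replicates 1, 2 and 4) and MHC-cycD2 transgenic with Shunt (cycD2 Shunt, n = 5). MHC names the myosin heavy chain promoter, which drives the cyclin D2 transgene in heart muscle cells. TAC narrows the transverse aorta and loads the ventricle with pressure, and the aortocaval Shunt joins aorta and vena cava and loads it with volume. Operations were done at 8 weeks of age. The labels do not say which sham operation these mice had, and the time from surgery to tissue is not given in the sources used here. WT mice had no surgery, so transgene and sham surgery cannot be told apart in the comparison of cycD2 sham with WT. Nothing in the labels says whether a library is 1 animal.

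The 18 libraries held 19297821 to 30594075 gene counts. Ventricular muscle markers were present in all of them, at a sum of 67750 to 112900 CPM (CPM are counts scaled to the library total, here with edgeR's TMM factors). Some properties of the libraries cut across the groups. Ccnd2, the transgene's gene, was read in the library labelled cycD2 TAC replicate 2 at 7.83 log2 CPM, near the WT range of 7.14 to 7.56, while the other transgenic libraries lay between 14.11 and 14.90. Its group is taken from its label throughout, also where it is named below as TAC replicate 2. TAC replicate 4 and all WT and sham libraries had transcripts of the Y-linked Ddx3y (1987 to 2662 counts), whereas TAC replicates 1 and 2 and all Shunt libraries had 0 to 9. Xist, which is transcribed in females, was at 2644 to 5787 counts in exactly these and at 4 to 13 counts in the others. By these transcripts every Shunt library is female and every WT and sham library male, so volume load and sex cannot be told apart in Shunt against sham. The Y-linked covariate used below rests mainly on TAC replicate 4 against replicates 1 and 2, and does not separate load from sex there. Arntl and Dbp, clock genes with opposite daily phases, put WT replicates 1 to 3, sham replicates 1 and 2 and every TAC library in a state with Arntl above Dbp, and WT replicates 4 and 5, sham replicates 3 to 5 and every Shunt library in the opposite state. All Shunt libraries thus differ from all TAC libraries in clock state. The share in no annotated gene, of the reads counted to genes, as ambiguous or to no gene, also separated groups, at 19.003% to 22.78% in WT, 14.9% to 17.9% in sham, 13.6% to 14.86% in TAC and 15.03% to 19.9% in Shunt. WT lay above sham, and TAC below both sham and Shunt, without overlap. Its part in the results was not tested. Values within a clock state, and without the library that stands apart, are given beside the results they touch.

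Promoter sequence is shown for 3 genes, because their levels moved together or changed most. Windows of 250 bases before the start were read from the RefSeq promoter table (GRCm38.p6) for Fos, Fosb, Jun, Junb, Jund, Egr2 and Atf3, which is 7 of the 10 genes. They were searched on both strands for 6 motifs: the CArG box, to which serum response factor binds; TGACG, the core of the cAMP response element; the whole element TGACGTCA, which contains that core; the AP-1 site TGANTCA; the EGR site GCGNGGGCG; and the E-box CACGTG, to which MYC and the clock factors bind. TGACG was added to the search after the first results had been seen. In the sequences below, capitals mark the CArG box and TGACG, or CGTCA where TGACG lies on the other strand.
Fos, chr12:85473640-85473889, plus strand: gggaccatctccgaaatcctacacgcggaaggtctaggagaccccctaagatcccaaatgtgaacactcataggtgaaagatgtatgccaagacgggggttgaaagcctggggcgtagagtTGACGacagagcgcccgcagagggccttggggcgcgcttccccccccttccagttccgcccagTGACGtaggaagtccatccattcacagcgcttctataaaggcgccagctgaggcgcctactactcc
Junb, chr8:84978749-84978998, minus strand: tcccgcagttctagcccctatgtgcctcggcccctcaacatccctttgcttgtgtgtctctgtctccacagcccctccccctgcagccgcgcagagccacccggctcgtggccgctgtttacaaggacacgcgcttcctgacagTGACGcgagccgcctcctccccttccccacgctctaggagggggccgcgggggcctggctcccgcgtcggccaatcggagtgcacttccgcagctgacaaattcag
Egr2, chr10:67537793-67537822, plus strand: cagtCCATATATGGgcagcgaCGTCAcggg
Egr2, chr10:67537490-67537519, plus strand: ttctCCTTTTTTGGaaagtctcggagaacc

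In the Fos window TGACG began 129 and 66 bases before the start, and in the Junb window 106 bases before it. Egr2 has several starts in the RefSeq table. Before the start at 67537869, its window held the CArG box CCATATATGG, 72 to 63 bases upstream, with TGACG on either side of it, and before the start at 67537566 it held CCTTTTTTGG at the same distance. A CArG box was found in 1.467% of the 32851 windows of this length in the table, and TGACG in 17.765%. These shares are per window and not per gene. The 7 genes had 11 windows, because Egr2 had several, some of which overlap and hold the same CArG box. Fosb and Atf3 also held TGACG, Fosb an EGR site and the most upstream Egr2 window an E-box, and the windows of Jun and Jund held none of the 6. The whole element, found in 1.546% of all windows, and the AP-1 site, found in 6.749%, matched in none of the windows of the 7 genes. The RefSeq start used for Atf3 lies 34706 bases from the outer end of the GENCODE gene, and that of Jund 1210 bases, so those windows may not be the promoters in use here. A match is a description of letters and not of binding. Bases farther upstream were not searched, so a motif missing from a window, as the CArG box from that of Fos, may lie beyond it.

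The genes differed widely in level. Per length (RPKM over the union of exons, mean of 18 libraries), Jund stood highest at 68.4, followed by Jun at 36.0 and Junb at 14.6. Fos at 9.47, Atf3 at 8.35 and Egr1 at 7.77 came next, and their ranges over libraries overlapped almost fully (0.530 to 50.6, 1.62 to 24.3 and 1.28 to 26.9), so their order is not set beyond the spread. Myc at 1.24, Egr2 at 0.628, Egr3 at 0.259 and Fosb at 0.182 were low, and Egr3 and Fosb overlapped. The low genes rested on few reads, 5 to 94 counts a library for Fosb, 6 to 119 for Egr3, 10 to 264 for Egr2 and 23 to 250 for Myc.

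**Figure D1:**
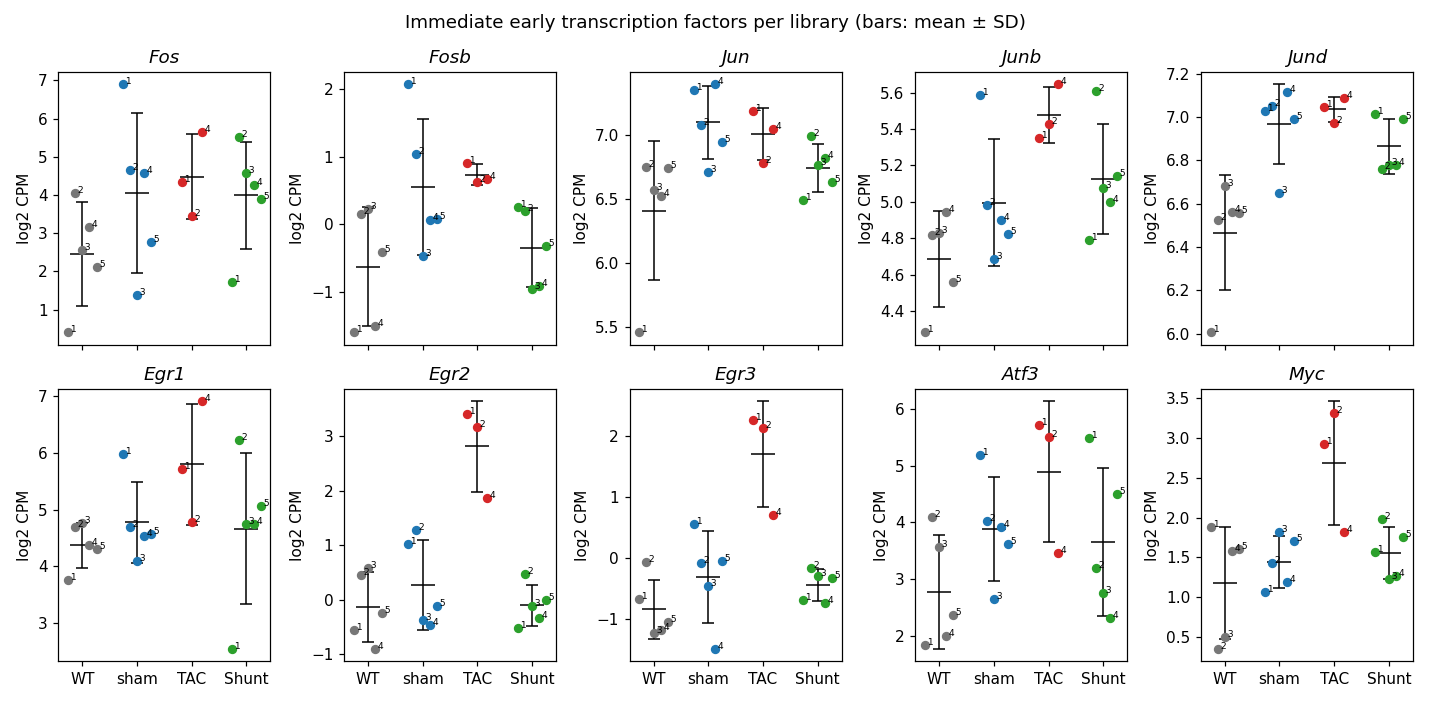
Level of each gene in each library, as log2 CPM on the vertical axis of its own panel, by group; points are libraries numbered by replicate, and bars give the group mean ± SD. The 3 TAC libraries lie above all sham and Shunt libraries for Egr2 and Egr3, and Fos, Egr1 and Atf3 spread widely within each group of the transgenic mice.

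Which genes changed depended on the comparison. In cycD2 sham against WT, Fosb, Jun and Jund rose, 3 of 10, while 13.5% of all genes tested were called higher and 14.9% lower (adjusted p under 0.05, edgeR quasi-likelihood test, Benjamini-Hochberg over all genes). In cycD2 TAC against cycD2 sham, a different set of 3 rose, Egr2, Egr3 and Myc, where 16.4% of all genes were called higher and 14.5% lower. In cycD2 Shunt against cycD2 sham, 0 of 10 were called by edgeR, with 0.242% of all genes called in either direction; 1 of 10 had an unadjusted p under 0.05, as 14.6% of all genes did, and DESeq2 and limma-voom also called 0. No member's groups were without overlap in sham against WT or in Shunt against sham, while 22.3% and 4.09% of all genes had groups without overlap in these (in the latter 1.79% higher and 2.3% lower). In cycD2 Shunt against cycD2 TAC, Egr2, Egr3 and Myc were lower, where 27% of all genes were called, 13.6% lower and 13.3% higher. These counts of called genes were not tested against the shares of all genes. The median log2 fold change of the 10 genes was 0.59, 0.76, -0.20 and -1.02 in the 4 comparisons in this order, and that of all genes tested was -0.01, 0.01, 0.00 and -0.01. The comparisons share the sham or the TAC libraries, so a gene high in TAC counts in both comparisons that use it.

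**Figure D2:**
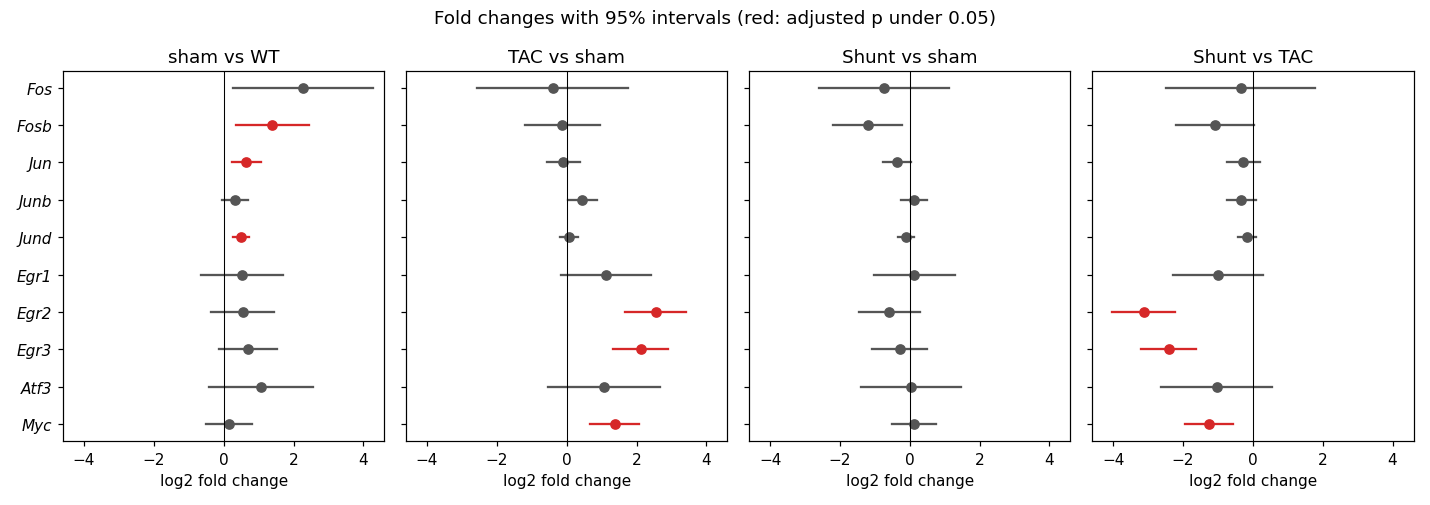
Log2 fold change of each gene (horizontal axis) with its 95% interval, in 1 panel per comparison; red marks an adjusted p under 0.05. Fosb, Jun and Jund are called in sham against WT, Egr2, Egr3 and Myc in both comparisons with TAC, and the intervals of Fos, Egr1 and Atf3 are wide throughout.

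Fos was the least steady of the genes. FOS cannot bind AP-1 sites alone and needs a JUN partner. In WT it was counted at 1.25, 16.4, 5.80, 8.82 and 4.23 CPM in replicates 1 to 5, and in sham at 119, 25.1, 2.53, 23.8 and 6.73 CPM. TAC replicates 1, 2 and 4 had 20.1, 10.8 and 50.1 CPM, and the 5 Shunt libraries 3.19, 45.7, 23.8, 18.9 and 14.7 CPM. Sham replicate 1 was the highest of all libraries and replicate 3 of the same group was lower than all but WT replicate 1, a 47.1-fold range within 1 group, so all groups overlapped.

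The Fos fold change of sham against WT was 2.28 ± 0.94 (log2, SE; 95% interval 0.28 to 4.29), with an adjusted p of 0.0840. DESeq2 called it (adjusted p = 0.0342), and so did the edgeR fit without sham replicate 3 (0.0445). Without sham replicate 1 the fold change was 1.02. Against sham, TAC stood at -0.40 ± 1.01 (adjusted p = 0.8014) and Shunt at -0.74 ± 0.87 (adjusted p = 0.7439). Without sham replicate 1 both turned positive, to 0.88 and 0.53. Shunt against TAC was -0.34 ± 1.00 (adjusted p = 0.8345). The intervals of the last 3 comparisons reach beyond 1 log2 unit on both sides, so these data do not show that Fos stayed level.

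Fosb, which encodes a slower partner of JUN and a truncated form that persists, was the lowest of the set per length and rose in sham. Its WT libraries had 0.249, 1.03, 1.08, 0.271 and 0.669 CPM and its sham libraries 4.10, 1.96, 0.644, 0.959 and 0.974 CPM. TAC lay within a narrow band, 1.797, 1.459 and 1.503 CPM, and Shunt at 1.12, 1.06, 0.436, 0.447 and 0.715 CPM. Sham overlapped WT, and every TAC library lay above every Shunt library.

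Sham exceeded WT by 1.40 ± 0.49 for Fosb (log2, SE; adjusted p = 0.0411). This call was lost without sham replicate 1, where the fold change fell to 0.81 (adjusted p = 0.1732), and also without sham replicate 2 (0.0673) or without WT replicate 4 (0.0905), 5 (0.0707) or 1 (where it was 1.19 and not called). It held among libraries with Arntl above Dbp (1.95, adjusted p = 0.0476) and not among those with Dbp above Arntl (0.88, adjusted p = 0.3060); whether these differ was not tested. Shunt was 1.21 ± 0.47 below sham, with an unadjusted p of 0.0194 and an adjusted p of 0.2545. Shunt against TAC was -1.08 ± 0.53 (adjusted p = 0.1411), although the groups did not overlap, which 24.7% of all genes also showed in that comparison. With the Arntl minus Dbp difference as a covariate this last value turned to 0.17.

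Jun, the founding partner in AP-1 and the main substrate of the JNK kinases, was higher in sham than in WT. WT libraries held 43.8, 108, 94.8, 92.2 and 107 CPM, and sham libraries 164, 136, 105, 169 and 123 CPM. TAC had 146, 110 and 133 CPM and Shunt 90.0, 127, 109, 113 and 99.3 CPM. WT replicate 1 was far below the rest, and only sham replicate 3 fell within the WT range.

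The rise of Jun in sham was 0.64 ± 0.19 (log2, SE; 1.56-fold, adjusted p = 0.0201), and without WT replicate 1 it was 0.47. The call was lost within each clock state (0.88 with an adjusted p of 0.1410 where Arntl was above Dbp, 0.43 with 0.1788 where Dbp was above Arntl), where fewer libraries enter, in a fit to the WT and sham libraries alone (0.66, adjusted p = 0.0595) and with atrial muscle genes as a covariate (0.0697). Atrial muscle markers moved with this comparison, at a sum of 6.466 to 50.47 CPM in WT and 43.36 to 800.9 CPM in sham, none of the 5 at 0 throughout; their part in the result was not tested beyond that covariate. Other markers also moved in sham against WT: 5 of 8 endothelial, 3 of 8 smooth muscle and pericyte and 5 of 6 mesothelial markers were lower, and 3 of 5 skeletal muscle markers tested were higher and 1 lower. The endothelial sum was 964.7 to 1249 CPM in sham and 1176 to 1585 CPM in WT, the smooth muscle and pericyte sum 1692 to 2278 CPM and 2228 to 2342 CPM, the mesothelial sum 5.751 to 8.056 CPM and 6.463 to 39.9 CPM, and the skeletal muscle sum 2117 to 2597 CPM and 2731 to 2978 CPM, with no marker at 0 throughout a group. Most of the skeletal muscle sum was Ckm, the marker called lower, at a mean of 2239 CPM in sham and 2874 CPM in WT. The 3 called higher, Atp2a1, Tnni2 and Tnnt3, were at 10.6, 9.23 and 3.43 CPM in sham and 0.41, 0.92 and 0.33 CPM in WT. The part of these cells in the rise of Fosb, Jun and Jund was not tested. Jun in TAC and in Shunt differed from sham by -0.10 ± 0.22 (adjusted p = 0.7607) and -0.37 ± 0.19 (adjusted p = 0.3850).

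Jund, a JUN protein present in resting cells, was the most abundant gene of the set per length and the steadiest. It was at 64.2, 92.0, 103, 94.4 and 94.0 CPM in WT and at 130, 133, 100.1, 139 and 127 CPM in sham. TAC libraries had 132, 125 and 136 CPM, and Shunt libraries 129, 108, 110, 110 and 127 CPM. The lowest sham library, replicate 3, again lay within the WT range, and the other sham libraries lay above it.

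Sham exceeded WT for Jund by 0.49 ± 0.11 (log2, SE; 1.41-fold, adjusted p = 0.0023). The fold change was 0.39 to 0.56 with any 1 library left out and stayed called; among libraries with Dbp above Arntl it was 0.39 with an adjusted p of 0.0724. TAC against sham gave 0.06 ± 0.12 (95% interval -0.20 to 0.32) and Shunt against sham -0.11 ± 0.11 (95% interval -0.33 to 0.12), neither called. The gene shares 877 of its 1668 exon bases with the antisense gene Gm11175, which had no counts. How reads in the shared bases were counted is not given. The lack of counts therefore does not show that Gm11175 was silent, and the level of Jund per length may be too low. The library kit does not mark strand, so reads of a gene and of an overlapping partner cannot be told apart.

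Junb, a JUN protein that competes with JUN, was called in none of the comparisons. WT libraries had 19.4, 28.1, 28.3, 30.7 and 23.5 CPM, sham libraries 48.0, 31.5, 25.6, 29.8 and 28.2 CPM, TAC libraries 40.7, 43.0 and 49.99 CPM and Shunt libraries 27.6, 48.7, 33.7, 31.9 and 35.3 CPM. Sham replicate 1 stood apart from its group and overlapped TAC. TAC exceeded sham by 0.45 ± 0.20 (log2, SE; unadjusted p = 0.0341, adjusted p = 0.0910), and without sham replicate 1 by 0.62 (adjusted p = 0.0093). Sham against WT was 0.33 ± 0.17 (adjusted p = 0.1688) and Shunt against sham 0.12 ± 0.17 (adjusted p = 0.7986). Junb shares 173 of its 2301 exon bases with Prdx2 on the opposite strand, which had up to 9926 counts a library. Jund shares 877 of 1668 with Gm11175, and Jun 232 of 3189 with Junos, which had up to 23 counts. How reads in shared bases were counted is not given, so the levels of these 3 genes are less certain, and which is affected most is not known.

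Egr2 showed the largest change of the set. In mice it is best known for myelination and hindbrain patterning, and it is also induced in macrophages and T cells and by growth factors. TAC replicates 1, 2 and 4 had 10.5, 8.91 and 3.56 CPM (264, 226 and 83 counts). Sham libraries had 1.96, 2.34, 0.690, 0.639 and 0.841 CPM, Shunt libraries 0.615, 1.31, 0.838, 0.708 and 0.910 CPM, and WT libraries 0.598, 1.29, 1.43, 0.452 and 0.758 CPM. All TAC libraries lay above all others, replicate 4 by the smallest margin.

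TAC exceeded sham 5.85-fold for Egr2 (2.55 ± 0.42, log2, SE; adjusted p = 2.33e-04), and Shunt was 8.75-fold below TAC (-3.13 ± 0.42, adjusted p = 9.17e-05). Groups that did not overlap were seen in 28.1% of all genes in the first comparison (14.5% higher) and in 24.7% in the second (12.5% lower). With TAC replicate 2 left out the values were 2.41 (adjusted p = 0.0015) and -3.00 (5.47e-04), and without replicate 4, 2.89 and -3.47. Against the sham libraries of the same clock state, TAC stood at 1.83 (adjusted p = 0.0432), and with the clock covariate (Arntl minus Dbp) at 1.84 (0.0014). With Y-linked genes as a covariate it stood at 1.39 and was not called (0.1868); replicate 4 is then the sole TAC library with Y transcripts, at 3.56 CPM against at most 2.34 in sham. In Shunt against TAC, Egr2 was -1.95 with the clock covariate (adjusted p = 0.0051) and -3.55 with the Y-linked covariate (3.02e-05); no clock state holds libraries of both groups. Sham against WT gave 0.54 ± 0.43 (adjusted p = 0.3730) and Shunt against sham -0.58 ± 0.42 (adjusted p = 0.5503).

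Egr3, an EGR gene known from muscle spindles and lymphocytes, followed Egr2. TAC libraries had 4.75, 4.34 and 1.55 CPM, against 1.40, 0.867, 0.644, 0.274 and 0.885 CPM in sham and 0.538, 0.816, 0.738, 0.521 and 0.715 CPM in Shunt. WT libraries had 0.548, 0.876, 0.344, 0.362 and 0.401 CPM. TAC lay above both other transgenic groups, but TAC replicate 4 and sham replicate 1 nearly met, at 36 and 32 counts.

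The rise of Egr3 in TAC against sham was 4.33-fold (2.11 ± 0.37, log2, SE; adjusted p = 4.10e-04), and Shunt was 5.30-fold below TAC (-2.41 ± 0.37, adjusted p = 2.36e-04). Without the library labelled cycD2 TAC replicate 2 these were 1.93 (adjusted p = 0.0031) and -2.23 (0.0016). Against sham libraries of the same clock state the value was 1.65 with an adjusted p of 0.0755, and with the clock covariate 1.64 (0.0085). With the Y-linked covariate it was 0.86 (0.3876). Shunt against TAC was -1.68 with the clock covariate (adjusted p = 0.0246) and -2.84 with the Y-linked covariate (4.24e-05). Sham against WT was 0.70 ± 0.40 (adjusted p = 0.2078).

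Egr1, the EGR factor most often measured as an early response gene in the heart, was not called in any of the 4 comparisons. WT libraries lay at 13.4, 25.7, 26.9, 20.6 and 19.7 CPM and sham libraries at 63.5, 25.7, 17.1, 23.1 and 23.8 CPM. TAC had 52.3, 27.5 and 121 CPM, and Shunt 5.73, 75.0, 26.7, 26.8 and 33.2 CPM. The highest library, TAC replicate 4, was the lowest of its group for Egr2 and Egr3, and the lowest, Shunt replicate 1, held 149 counts against 1837 in Shunt replicate 2. TAC against sham was 1.12 ± 0.61 (log2, SE; 95% interval -0.18 to 2.42, adjusted p = 0.1803) and 0.38 without TAC replicate 4. Sham against WT was 0.53 ± 0.55 (adjusted p = 0.5148) and Shunt against TAC -0.997 ± 0.608 (adjusted p = 0.2459).

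Atf3 varied widely within groups and was called in none of the comparisons. Its libraries had 3.49, 17.0, 11.7, 3.89 and 5.08 CPM in WT, 36.5, 16.1, 6.16, 15.0 and 12.2 CPM in sham, 52.3, 45.3 and 10.9 CPM in TAC, and 45.0, 9.10, 6.71, 4.92 and 22.5 CPM in Shunt. TAC replicates 1 and 2 were above every library of the other groups, and TAC replicate 4 was below most of sham. The library lowest for Fos and Egr1 in Shunt, replicate 1, was the highest of its group for Atf3, with 1169 counts. TAC against sham gave 1.07 ± 0.75 (log2, SE; adjusted p = 0.3006), sham against WT 1.07 ± 0.70 (adjusted p = 0.2768) and Shunt against TAC -1.04 ± 0.75 (adjusted p = 0.3289). Shunt against sham was 0.03 ± 0.67 (95% interval -1.39 to 1.46), so that neither a rise nor a fall is shown.

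Myc rose in TAC. It was at 7.55, 9.86 and 3.44 CPM in TAC replicates 1, 2 and 4, at 2.01, 2.60, 3.45, 2.19 and 3.19 CPM in sham, at 2.88, 3.88, 2.25, 2.31 and 3.28 CPM in Shunt and at 3.59, 1.19, 1.33, 2.89 and 2.94 CPM in WT. TAC replicates 1 and 2 lay above every other library, while replicate 4 lay within the sham range.

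Myc in TAC exceeded sham 2.59-fold (1.37 ± 0.33, log2, SE; adjusted p = 0.0047), and Shunt was 2.38-fold below TAC (-1.25 ± 0.33, adjusted p = 0.0092). Both calls were lost without the library labelled cycD2 TAC replicate 2, the highest, at 1.02 (adjusted p = 0.0504) and -0.91 (0.0859). Against sham libraries of the same clock state the value was 1.59 (adjusted p = 0.1047), with the clock covariate 1.54 (0.0123) and with the Y-linked covariate 0.30 (0.7884). Shunt against TAC was -1.46 with the clock covariate (adjusted p = 0.0329) and -1.65 with the Y-linked covariate (0.0014). Sham against WT was 0.16 ± 0.31 (95% interval -0.49 to 0.82) and Shunt against sham 0.12 ± 0.31 (95% interval -0.52 to 0.76), neither called.

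Markers of other cells also differed in TAC. All 8 fibroblast markers were called higher against sham, with a summed level of 2341 to 5968 CPM in TAC and 1035 to 1840 CPM in sham, highest in the library labelled cycD2 TAC replicate 2. The macrophage sum was 309.5 to 508.4 CPM in TAC and 269.2 to 403.8 CPM in sham, with 0 of its 8 markers called; at an unadjusted p under 0.05 there was 1. Of the 8 endothelial markers 4 were higher, of the 8 smooth muscle and pericyte markers 3 were higher and 1 lower, and of the 10 ventricular muscle markers 1 was higher and 5 were lower, Myh6, Tnnt2, Tnni3, Ryr2 and Pln. The endothelial sum was 1300 to 1428 CPM in TAC and 964.7 to 1249 CPM in sham, the smooth muscle and pericyte sum 1907 to 2759 CPM and 1692 to 2278 CPM, the ventricular sum 67750 to 102300 CPM and 100600 to 112900 CPM, and the red cell sum 16.57 to 35.94 CPM and 40.24 to 431.8 CPM. None of these markers was at 0 throughout a group. Within TAC, replicate 4 was lowest for the fibroblast and macrophage sums and for Egr2, Egr3 and Myc. The fibroblast and macrophage sums and Myc were highest in replicate 2, Egr2 and Egr3 in replicate 1. The other sums given here ran otherwise. Replicate 4 was highest for the endothelial, ventricular and red cell sums, and replicate 2 lowest for the smooth muscle and pericyte sum. Replicate 4 was also the only TAC library with Y transcripts. In bulk tissue, more cells of a type and more RNA per cell cannot be told apart, and the part of these cells in the result was not tested.

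Within groups, the genes differed in how much they varied from library to library. The pooled SD of log2 CPM was 1.59 for Fos, larger than that of 99.79% of the genes tested, 1.11 for Atf3 (99.33%), 0.93 for Egr1 (98.84%) and 0.78 for Fosb (98.02%). It was 0.67 for Egr2, 0.60 for Egr3, 0.54 for Myc, 0.35 for Jun and 0.29 for Junb, and for Jund 0.19, the same as the median gene. Counting error at the mean count would give an SD of 0.06 for Fos and 0.28 for Fosb, so for Fos almost all of the spread lies beyond it.

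Deviations from the group mean fell into patterns that crossed the groups (n = 18 libraries, given as descriptions; the points share libraries and depth). Fos varied with Junb (Pearson r 0.877, Spearman rho 0.868, and r 0.822 without the pair of libraries farthest from the median), with Egr1 (0.814, 0.787 and 0.809) and with Jun (0.747, 0.676 and 0.739). Fosb varied with Atf3 (0.741, 0.732 and 0.674) and with Egr2 (0.725, 0.699 and 0.668), and Egr2 with Egr3 (0.700, 0.649 and 0.665). Egr1 and Atf3 did not vary together (-0.206, -0.030 and 0.204), and Fos and Myc ran in opposite directions (-0.556, -0.534 and -0.525). Jun and Jund had an r of 0.704 that rests on WT replicate 1 and sham replicate 3, since without them it was 0.069.

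**Figure D3:**
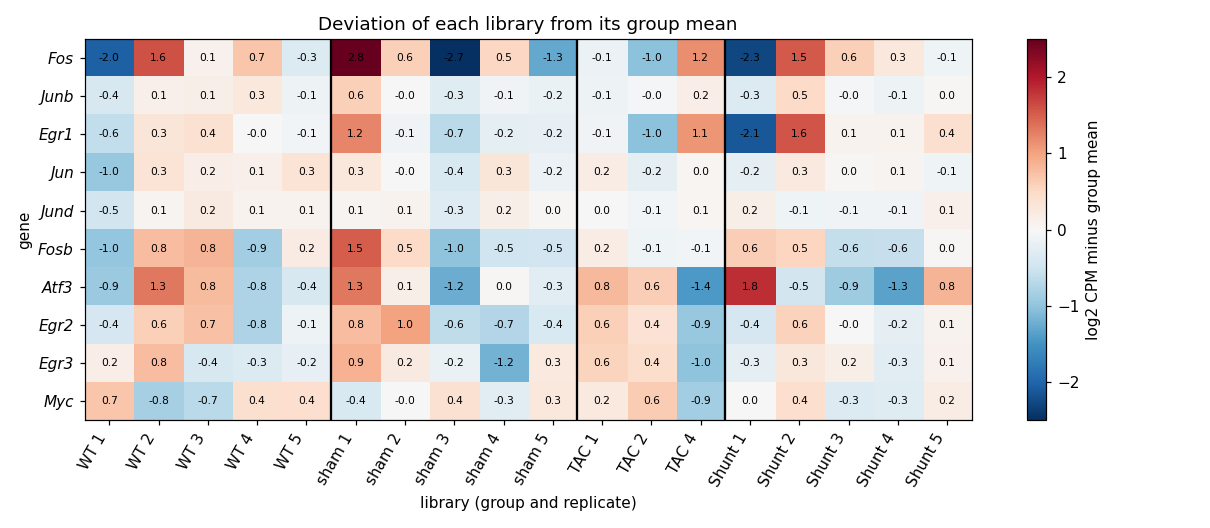
Deviation of each library (columns) from its group's mean log2 CPM, for each gene (rows), in log2 units by colour and number; black lines divide the groups. Fos, Junb and Egr1 share their highs in sham replicate 1, Shunt replicate 2 and TAC replicate 4, while Atf3, Egr2, Egr3 and Myc are low in TAC replicate 4.

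The genes most like each of the 10, by Pearson r of these deviations over 18 libraries among protein-coding genes, set the same patterns out. Fos was most like Btg2 (0.933), a growth-arrest gene that is itself induced early, then Junb (0.877) and Zfp791 (0.840). Junb was most like Btg2 (0.916) and Fos, and Egr1 most like Zfp791 (0.909), Zfp41 (0.857) and Paip1 (0.849). Jun was followed by Otud1 (0.861), Dusp1 (0.817), an early gene for a phosphatase of MAP kinases, and Edrf1 (0.804). Egr2 was most like Spty2d1 (0.928), Ccl2 (0.903), which encodes a chemokine that draws monocytes, and Ppp2r1b (0.900). Atf3 was most like Ywhaq (0.898), Siah2 (0.894) and Atf4 (0.887), the stress factor known to raise Atf3.

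Of the others, Fosb had Ccdc25 (0.842), Wtap (0.834) and Btbd10 (0.830), Egr3 had Traf3 (0.831), Armcx6 (0.805) and Stt3a (0.804), Myc had Irak3 (0.857), Slc37a3 (0.837) and Leprot (0.830), and Jund had Hand2 (0.806), a heart transcription factor, Mad2l1bp (0.795) and Depp1 (0.771). These are the highest values among all protein-coding genes tested, picked for being highest, and say nothing of shared control.

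For some of these genes the sham libraries of the opposite clock states did not overlap, while in WT all of the genes overlapped. In sham, 6 of the 10 genes, Fos, Fosb, Junb, Egr1, Egr2 and Atf3, were higher in both libraries with Arntl above Dbp than in all 3 others. The share of all genes tested that split this way was not computed, so this count is a description only. Some margins were narrow, with nearest libraries at 16.1 and 15.0 CPM for Atf3, 31.5 and 29.8 for Junb and 25.7 and 23.8 for Egr1. Egr2 was at 1.96 and 2.34 CPM against 0.690, 0.639 and 0.841 CPM, Fosb at 4.10 and 1.96 CPM against 0.644, 0.959 and 0.974 CPM, and Fos at 119 and 25.1 CPM against 2.53, 23.8 and 6.73 CPM. In WT all 10 genes overlapped between the clock states, with Egr2 at 0.598, 1.29 and 1.43 CPM against 0.452 and 0.758 CPM and Fosb at 0.249, 1.03 and 1.08 CPM against 0.271 and 0.669 CPM. The libraries form separate clusters on this measure, so no correlation over all of them is given.

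**Figure D4:**
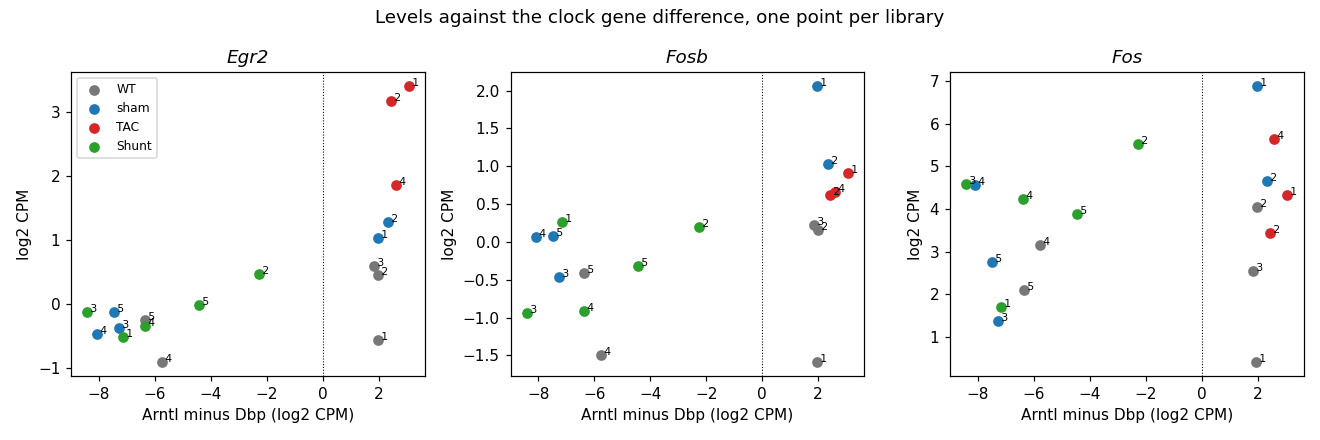
Level of Egr2, Fosb and Fos (log2 CPM, vertical axes) against the difference of the clock genes Arntl and Dbp (log2 CPM, horizontal axis), 1 numbered point per library coloured by group. All TAC libraries lie to the right of 0 and all Shunt libraries to the left, so that for Egr2 the sham libraries on the right, at 1.96 and 2.34 CPM, are the nearest match to TAC.

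Relatives and regulators of these genes were counted from lists chosen with earlier results of these data known. Of 13 AP-1 and small Maf relatives tested, 1 rose and 1 fell in sham against WT, namely Atf4 (0.31 ± 0.11, log2, SE) and Batf2 (-1.02 ± 0.33), which is 15.4% called where 28.4% of all genes were. In TAC against sham, Mafk (0.49 ± 0.16) and Crem (0.48 ± 0.13) rose and Nfe2l2 (-0.33 ± 0.12) and Atf2 (-0.27 ± 0.08) fell (30.8% called, where 30.9% of all genes were), with a median of 0.30 over the list; 1 of the 13 was called without TAC replicate 1, and 2 without TAC replicate 2, sham replicate 3 or sham replicate 4. The calls in sham against WT fell to 0 without sham replicate 1 or 5 or WT replicate 1 or 3. Fosl2, a FOS family member, was at 86.7 ± 39.8 CPM in TAC (SD, n = 3) and 67.1 ± 18.9 CPM in sham (n = 5) and was not called (0.37, adjusted p = 0.3634), but Shunt was below TAC (-0.84 ± 0.29, adjusted p = 0.0405).

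Upstream kinases and factors changed in TAC in both directions. Of 20 tested, 7 rose and 4 fell against sham, with a median of 0.07, where 16.4% of all genes were called higher and 14.5% lower. Those with the largest rise were Elk3 (0.59 ± 0.15), an ETS partner of serum response factor, Mapk7 (0.52 ± 0.12), the kinase ERK5, and Srf itself (0.52 ± 0.15), at 215 ± 21.9 CPM in TAC and 150 ± 35.6 CPM in sham. Prkd1 (-0.48 ± 0.14) and Mapk9 (-0.22 ± 0.06) were among those that fell. Without TAC replicate 1, 5 of the 20 were called in place of 11. In sham against WT, 2 rose, Prkd1 (0.49 ± 0.12) among them, and none fell (10% called, where 28.4% of all genes were).

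Among 13 EGR corepressors and MYC partners, 6 rose and none fell in sham against WT (46.2% called, where 28.4% of all genes were). The 3 with the largest rise were Max (0.66 ± 0.14), the partner of MYC, and Mxd1 (0.65 ± 0.16) and Mnt (0.55 ± 0.16), which pair with MAX in place of MYC. Nab2, the EGR corepressor that EGR factors induce, rose in both sham against WT (0.41 ± 0.14) and TAC against sham (0.56 ± 0.16), at 9.08 ± 0.97 CPM in WT, 12.1 ± 1.03 CPM in sham (SD, n = 5 each) and 17.7 ± 3.87 CPM in TAC (n = 3). In TAC against sham, Mxd3 (1.24 ± 0.36) also rose, and Max (-0.75 ± 0.16), Mga (-0.37 ± 0.11) and Mlxip (-0.27 ± 0.06) fell (38.5% called, where 30.9% of all genes were). Max was thus lower in the group where Myc was higher, at 31.5 ± 1.91 CPM in TAC and 52.9 ± 12.9 CPM in sham.

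Of 45 other immediate early genes tested, 9 rose and none fell in TAC against sham (20% called, where 30.9% of all genes were), with a median of 0.35. The largest rises were in Ptgs2 (2.01 ± 0.42), the inducible cyclooxygenase, Phlda1 (1.39 ± 0.39) and Ccn1 (1.24 ± 0.20), a matrix protein gene known as a target of SRF and YAP. In Shunt against TAC, 11 were lower and none higher (24.4% called, where 27% of all genes were), with Ptgs2 (-1.97 ± 0.41), Lif (-1.72 ± 0.43) and Ccn1 (-1.56 ± 0.20) in front; 5 were called without TAC replicate 1, 5 when TAC replicate 2 was left out and 7 without Shunt replicate 4. In sham against WT, Nr4a1 (1.81 ± 0.58) and Nr4a2 (1.27 ± 0.39), orphan nuclear receptors, and Ier3 (0.91 ± 0.25) rose, and Phlda1 (-1.63 ± 0.36), Ccn1 (-0.68 ± 0.18) and Mcl1 (-0.33 ± 0.10) fell (13.3% called, where 28.4% of all genes were). Without sham replicate 1 this count was 3 in place of 6.

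Among 20 textbook target genes of AP-1 and EGR factors, 7 rose and 2 fell in TAC against sham (45% called, where 30.9% of all genes were), with a median of 0.54. Timp1 (3.56 ± 0.56), Spp1 (2.35 ± 0.62) and Mmp14 (1.73 ± 0.32), genes of matrix turnover, had the largest rises, and F3 (-0.71 ± 0.24) and Pdgfa (-0.54 ± 0.11) fell. Of 24 MYC target genes, 3 rose and none fell, with a median of 0.07, and these were Odc1 (0.55 ± 0.11), the polyamine enzyme, Bop1 (0.36 ± 0.10) and Gnl3 (0.25 ± 0.09), the last at the threshold itself. Without the library labelled cycD2 TAC replicate 2, 1 was called. The MYC targets were called in 12.5% and all genes in 30.9%, a difference that was not tested. With Y-linked genes as a covariate, TAC against sham called 2 of the other immediate early genes and 0 of the relatives, the upstream genes, the AP-1 and EGR targets and the MYC targets.

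**Figure D5:**
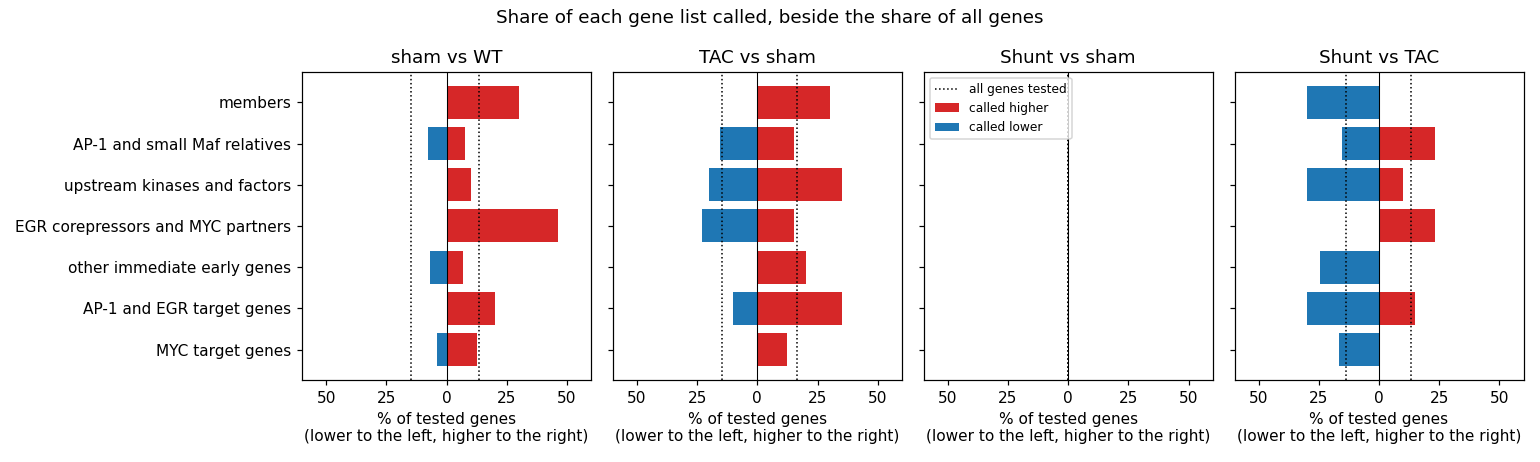
Percent of each gene list called higher (red, to the right) or lower (blue, to the left) in each comparison, 1 panel per comparison; dotted lines give the percent of all genes tested. The panel of Shunt against sham is empty because no gene of the lists was called.

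None of the genes of these lists was called in Shunt against sham by edgeR, where only 0.242% of all genes were called. At an unadjusted p under 0.05, which 14.6% of all genes had, there were 6 of the 20 upstream genes, 3 of the 45 other immediate early genes, 1 of the 13 EGR corepressors and MYC partners, 1 of the 24 MYC targets and 0 of the relatives and of the AP-1 and EGR targets. DESeq2 called 1 upstream gene and limma-voom 0. The 10 markers of load chosen beside them, natriuretic peptides, collagens and others, were called higher in TAC against sham in 10 of 10 and in Shunt against sham in 0 of 10. The shares of all genes called higher were 16.4% and 0.108%. In Shunt against sham 8 of these 10 markers had a positive log2 fold change, with a median of 0.53, where that of all genes was 0.00. The 0 calls thus do not show that these markers stayed level.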

How the data were processed

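Left ventricular RNA of 18 libraries was made with a kit that does not mark strand (TruSeq RNA v2). The authors deposited raw read counts per Ensembl gene identifier, 1 table a library; per the submitters' processing notes, STAR 2.3.0e, HTSeq 0.6.1p1, CASAVA 1.8.2, SAMtools 0.1.19, DESeq2 1.8 and FastQC were used, in roles not given, and the counting options are not given in the sources used here. The 5 summary lines of each table, 47.6% to 59.1% of all counted lines, were left out. Symbols and lengths came from GENCODE M21 (GRCm38), matching 36602 of 38355 identifiers.

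Counts were tested with edgeR 4.0.16 (R 4.3.3; quasi-likelihood F test, robust, TMM, filterByExpr with a minimum count of 10, 1 mean per group over all 18 libraries), with Benjamini-Hochberg adjustment over 14876 genes. The SE was taken from the F statistic. Log2 CPM used a prior count of 2. The scripts were tested on simulated data. The lowest chi-square per gene between 2 libraries of a group was 7.08, so none were duplicates. P-values measure only the spread between these libraries. Same-numbered sham and TAC libraries had weakly correlated deviations (0.129, 0.151 and 0.157), and 2 of the 3 TAC libraries correlated better with another number. Pairing by number is therefore not established. The numbers enter only the replicate block, not the main test. DESeq2 1.42.0, limma-voom (3.58.1), other scalings and filters, a replicate block, covariates, clock states and left-out libraries were alternatives. Members and lists were chosen with earlier results of these data known. Besides the 10 members, up to 3 genes called higher and 3 called lower were named per list and comparison, by fold change, and the 3 genes most like each member; Nab2 in sham against WT and Fosl2 in TAC against sham were named outside this rule, after their values were seen. Batf3, Atf7, Egr4 and Il6 of the lists were not tested. Some genes that the naming rule picks are not reported here.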

Additional observations from a re-analysis of the deposited data

Results flagged for a closer look

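In 30 groups of 5 libraries (10 genes in WT, sham and Shunt), 3 had a library whose gap to its nearest neighbour, divided by the group's range of log2 CPM, exceeded Dixon's critical value of 0.71; chance alone gives about 1 in 20. WT replicate 1 was the lowest for Jun, with a ratio of 0.8271, and for Jund, with 0.7661. It also had the lowest Fos, Fosb, Junb, Egr1 and Atf3 of WT. Sham replicate 3 was the lowest for Jund, with a ratio of 0.7293, and for Fos, Fosb, Jun, Junb, Egr1 and Atf3 of its group.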

How the results depend on the processing

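Of the 900 fold changes of the 10 genes recomputed under alternatives, 836 kept direction and side of the threshold, 23 lost the call, 4 gained it and 37 changed sign, none of them called in the main analysis; the cause was not tested except where fewer libraries entered. Members called in sham against WT (3) were 1 with only the 2 groups compared, 1 with atrial genes as covariate and 0 among libraries with Dbp above Arntl; in TAC against sham (3) they were 0 with Y-linked genes as covariate and 1 among libraries with Arntl above Dbp. Leaving out 1 library gave 2 to 4, 2 to 4, 0 to 0 and 2 to 3 members in sham against WT, TAC against sham, Shunt against sham and Shunt against TAC, and 3372 to 4526, 3257 to 4924, 21 to 44 and 2703 to 4356 genes. Genes called in Shunt against sham (36) were 232 by DESeq2, 58 with the clock covariate, 0 with the Y-linked covariate and 59 with Dbp above Arntl. They were 2127 in Shunt against TAC with the clock covariate, 373 (Y-linked covariate) and 1495 (Arntl above Dbp) in TAC against sham, and 1139 (Arntl above Dbp) and 1809 (Dbp above Arntl) in sham against WT. The Y-linked measure divides Shunt from sham completely, so the 0 genes called there cannot separate sex from load.

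Uncalled log2 fold changes that changed sign were, by limma-voom, Fos 0.39 and Fosb 0.17 in TAC against sham and Egr1 -0.12 and Atf3 -0.24 in Shunt against sham. With the clock covariate they were Fos 0.0373 in Shunt against sham and Fos 1.16 and Fosb 0.17 in Shunt against TAC. With the Y-linked covariate they were Fos 0.53 and Atf3 -0.66 in TAC against sham, Fos 1.06, Atf3 -2.20 and Myc -1.35 in Shunt against sham and Fos 0.53 in Shunt against TAC. Inside groups the Y-linked mean differed mainly within TAC, at -0.69, -0.63 and 5.22 log2 CPM in replicates 1, 2 and 4. The Shunt against sham values carry over that difference and cannot separate sex from load. With the atrial covariate Atf3 was -0.14 in Shunt against sham; with Arntl above Dbp Jund was -0.0079 in TAC against sham; with Dbp above Arntl, Shunt against sham was 0.93 for Fos, 0.26 for Egr2, 0.13 for Egr3 and -0.0266 for Myc. Leaving out 1 library gave -0.0029 to 0.35 for Myc in sham against WT; -1.20 to 0.88 for Fos, -0.33 to 0.46 for Fosb and -0.0117 to 0.0929 for Jund in TAC against sham; -1.22 to 0.53 for Fos, -0.67 to 0.50 for Atf3, -0.40 to 0.57 for Egr1, -0.0234 to 0.29 for Junb and -0.0013 to 0.22 for Myc in Shunt against sham; and -0.83 to 0.46 for Fos in Shunt against TAC.

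With the replicate block, 2, 3, 0 and 3 members were called in the same order; Fosb in sham against WT was lost (1.21, adjusted p = 0.0621, edgeR), Atf3 in Shunt against sham turned to -0.13 and Fos in Shunt against TAC to 0.27, and the block changed no other call of a member. In each other comparison at least 1 same-numbered pair correlated under 0.1. Shunt replicates 1, 2 and 4 nevertheless correlated best with the TAC library of their own number (0.170, 0.139 and 0.093). So did sham replicates 2 and 4 with WT (0.303 and 0.285) and Shunt replicates 2 and 3 with sham (0.318 and 0.315), but not the others. The block thus uses shared numbers and not known pairs, and whether the numbers mark a batch was not tested. Counting error limits Fosb and Egr3, at 5 to 94 and 6 to 119 counts.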
